A study of Homo sapiens with 16 samples.

Results

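The genes described here encode the extracellular matrix and its receptors: 55 genes for collagens, laminins, the proteins that link them in basement membranes, fibronectin and fibrillins, matricellular proteins, collagen crosslinking enzymes, integrins and CD44. They were taken by symbol from a given list, and all 55 were found among the 61906 genes of the deposited tables. Their RNA was measured in HEK-293T, a human embryonic kidney line that carries the SV40 large T antigen, and in HT-1080, a human fibrosarcoma line. HEK-293T cells were kept in DMEM and HT-1080 cells in EMEM. Each line was transfected with 20 nM of small interfering RNA by Lipofectamine RNAi-Max: siHNRNPH1 targets HNRNPH1, and siNegative is the control. Cells were harvested at 48 h. HNRNPH1 is an RNA-binding protein that regulates splicing. Short-read libraries were made from 3 biological replicates in each of the 4 groups. Long-read cDNA sequencing (IsoSeq) added 1 pool of replicates per group.

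Collagens are triple helices of alpha chains. Fibrillar collagens bear tension in connective tissue, while type IV collagen and laminins form the sheets of the basement membrane, which nidogens, perlecan and agrin tie together. Fibronectin is assembled into fibrils by cells. Lysyl hydroxylases and lysyl oxidases modify collagen so that its chains can be crosslinked. Integrins are receptors of 1 alpha and 1 beta chain that hold cells to this matrix, and CD44 is a receptor for hyaluronan. HT-1080 is a mesenchymal tumour line that is widely used to study matrix assembly and invasion, and HEK-293T is not a typical matrix producer.

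Depth, as the sum of expected counts, was 107.75 M to 121.03 M per HEK-293T library and 27.3 M to 32.65 M per HT-1080 library (M, mega). Levels are given as CPM, expected counts per M of that sum, which are not corrected for gene length, so they are compared between libraries and not between genes. The targeted gene, HNRNPH1, was lower with its siRNA in all 6 libraries. In HEK-293T it went from 1107, 1105 and 1121 CPM to 234, 376 and 394 CPM, with replicate 1 the lowest. In HT-1080 it went from 635, 606 and 617 CPM to 231.5, 231.0 and 228.5 CPM. Markers of HT-1080 (CAV1, AXL, PLAU, FOSL1, LGALS1 and S100A6) had means of 265 to 2843 CPM in the HT-1080 controls and 0.0029 to 6.78 CPM in the HEK-293T controls. Of the HEK-293T markers, NEFM, LIN28B, EMX2 and PAX2 were higher in the HEK-293T controls, at 258, 178, 4.10 and 1.34 CPM. The fifth, LHX1, went the other way, at 3.84 CPM in HEK-293T and 13.4 CPM in HT-1080. Markers of blood, endothelium, liver and muscle cells and the epithelial keratin KRT5 had group means of at most 0.223 CPM, and CDH1 reached 2.26 to 3.58 CPM in HEK-293T. In bulk RNA, fewer cells expressing a gene and less RNA per cell cannot be told apart.

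Replicate 1 of HEK-293T siHNRNPH1 stood apart from replicates 2 and 3. Among 50 members whose counts averaged 50 or more in its group, 29 were below both other replicates in it and 15 above both, with a median log2 deviation of -0.51. FBN2 deviated most downwards, by -2.25, and ITGB4 most upwards, by 1.14. Across the 37 of these members that had a long-read model in any pool, the deviation had a Spearman rho of -0.58 with the exonic length of the longest model, as a description of that library. A longest model can be partial and can come from HT-1080, as for COL7A1 (1.12 kb), so it is a rough measure of transcript length. HEK-293T results are given with and without siHNRNPH1 replicate 1 because that library stood apart. It was also the siHNRNPH1 library of this line with the least HNRNPH1 RNA, and whether the 2 are related was not tested. In HT-1080, replicate 2 of siNegative was below both other controls for 40 of 51 members, with a smaller median log2 deviation of -0.17. These deviations were counted over the members only, so whether other genes deviated alike in either library was not tested.

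The first comparison was the baseline of the lines, the HT-1080 controls against the HEK-293T controls. Cell line, medium, depth and table cannot be told apart in it. Of the 54 members tested, 52 differed (edgeR quasi-likelihood test, Benjamini-Hochberg (BH) adjusted p under 0.05), where 86.6% of all 19776 tested genes did. For 44 members the level was higher in HT-1080 and for 8 it was lower, against 40.8% and 45.8% of all genes. At least a doubling or halving was reached by 49 of the 52, against 53.2% of all genes. The median log2 difference was 3.30 over the members and -0.10 over all genes. COL1A2, a chain of type I collagen, had 0 to 6 counts in every library and was not tested in any comparison.

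**Figure D1:**
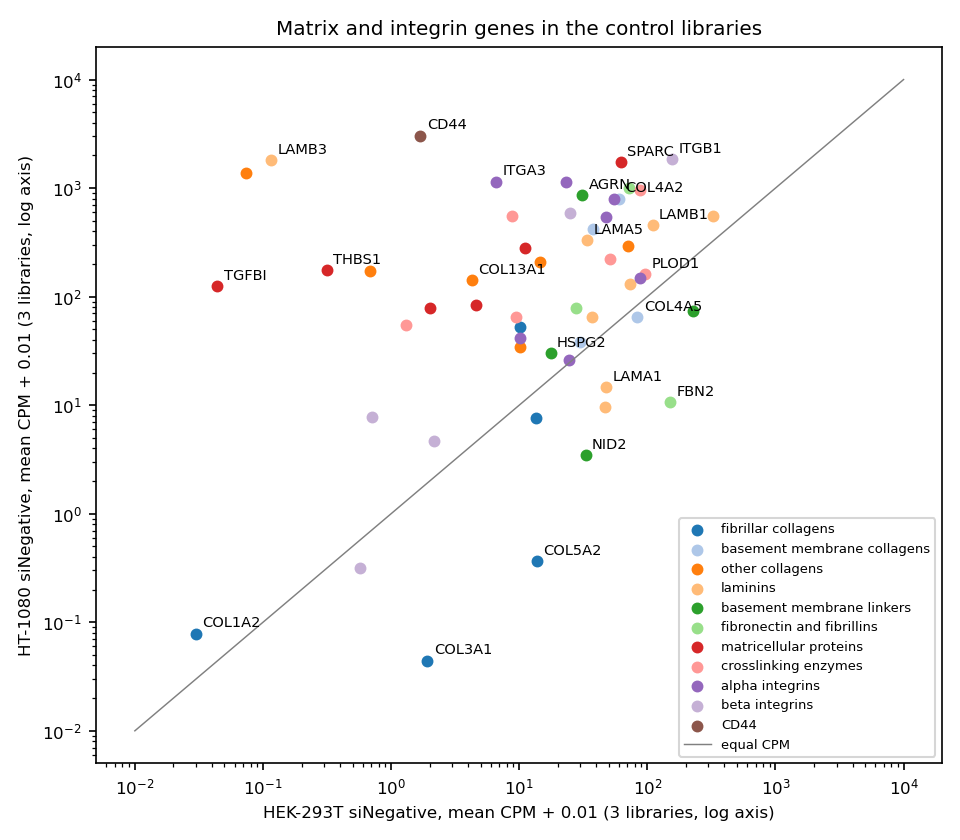
Mean CPM of each member in the HEK-293T siNegative libraries (x axis) and the HT-1080 siNegative libraries (y axis), 3 libraries each, both on log axes with 0.01 added and points coloured by role. The line marks equal CPM, and most members lie above it, with 44 of 54 tested members called higher in HT-1080.

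All 6 matricellular proteins, all 6 crosslinking enzymes, all 7 alpha integrins and all 6 members among the other collagens were higher in the HT-1080 controls. COL6A3, a chain of the beaded-filament collagen VI, stood at 1506, 1159 and 1483 CPM there, and at 0.036, 0.129 and 0.025 CPM in HEK-293T, which is 3 to 15 counts per library. LAMB3, the beta chain of laminin-332, stood at 1825, 1820 and 1772 CPM against 0.081, 0.138 and 0.099 CPM, from 9 to 16 counts. Both genes were thus near the lower end of detection in HEK-293T, and their log2 differences of 14.6 and 14.3 carry that limit. TGFBI, an integrin-binding matrix protein, had 118.6, 134.3 and 120.6 CPM in HT-1080 and 1, 6 and 5 counts in the HEK-293T controls.

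CD44 stood at 3129, 2876 and 3106 CPM in the HT-1080 controls and at 1.66, 1.89 and 1.51 CPM in the HEK-293T controls, a log2 difference of 11.07 (SE 0.10). THBS1, the secreted adhesion modulator thrombospondin-1, differed by 9.42 (SE 0.12), with 186.5, 157.0 and 185.7 CPM against 0.252, 0.353 and 0.306 CPM. COL12A1, a collagen of fibril surfaces, differed by 8.26 (SE 0.19), with 191.8, 134.5 and 190.9 CPM against 0.828, 0.585 and 0.595 CPM. In each of these genes every HT-1080 control lay above every HEK-293T control.

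The receptors and enzymes were higher in HT-1080 over a wide range. Among the alpha integrins the log2 difference ran from 0.35 (SE 0.06) for ITGA4, which pairs with beta 1 in leukocyte adhesion, to 7.70 (SE 0.07) for ITGA3, a laminin receptor chain. The 4 called beta integrins ran from 1.36 for ITGB8 to 4.82 for ITGB5, and the crosslinking enzymes from 1.01 for PLOD1 to 6.21 for LOXL2. ITGA6 had 46.9, 48.0 and 46.8 CPM in HEK-293T and 588, 483 and 557 CPM in HT-1080. FN1 differed by 4.05 (SE 0.10), with 72.8, 73.1 and 71.0 CPM against 1078, 845 and 1088 CPM. Of the basement membrane genes, AGRN differed by 5.05, COL4A2 by 3.99, COL4A1 by 3.75, HSPG2 by 1.04 and COL18A1 by 0.62.

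The 8 members that were lower in HT-1080 were the fibrillar collagen chains COL1A1, COL3A1 and COL5A2, the laminin alpha chains LAMA1 and LAMA3, the nidogens NID1 and NID2, and the microfibril protein FBN2. COL5A2, a chain of collagen V, had 14.3, 13.2 and 13.9 CPM in the HEK-293T controls and 0.366, 0.299 and 0.396 CPM in the HT-1080 controls, a log2 difference of -5.02 (SE 0.12). Its partner chain COL5A1 went the other way, with 10.0, 10.1 and 10.3 CPM in HEK-293T and 57.3, 46.5 and 54.1 CPM in HT-1080. COL3A1 had 185 to 247 counts per HEK-293T control and 1 count in each HT-1080 control, so no fold is given for it.

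FBN2 had 150.8, 151.2 and 151.2 CPM in HEK-293T and 11.4, 9.56 and 11.1 CPM in HT-1080 (log2 difference -3.57, SE 0.06). FBN1, the other fibrillin, was higher in HT-1080 by 1.77 (SE 0.09). The nidogens join laminin to collagen IV, and NID2 had 33.3, 31.5 and 34.2 CPM in HEK-293T and 3.55, 3.22 and 3.63 CPM in HT-1080 (-3.00, SE 0.07). LAMA3 and LAMA1 differed by -2.01 (SE 0.09) and -1.45 (SE 0.08). The laminin alpha chains LAMA5 and LAMA4 were higher in HT-1080, by 3.55 (SE 0.09) and 1.05 (SE 0.06). COL4A5 and ITGB4 did not pass the test, at -0.12 (edgeR BH-adjusted p = 0.214) and -0.62 (edgeR BH-adjusted p = 0.117).

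The main comparison in HT-1080 was siHNRNPH1 against siNegative. Of the 52 members tested, 47 changed, 34 up and 13 down (edgeR BH-adjusted p under 0.05), where 65.3% of all 16145 tested genes changed, 32.7% up and 32.6% down. The median log2 fold change was 0.31 over the members and 0.01 over all genes. A change of at least 2-fold was reached by 12 members, against 15.6% of all genes. Without siNegative replicate 2, 51 members changed, 34 up and 17 down, against 70.2% of all genes, 34.7% up and 35.5% down. With all 12 libraries in 1 fit and a shared spread, 27 members passed. The share of all genes in that fit is not given here.

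**Figure D2:**
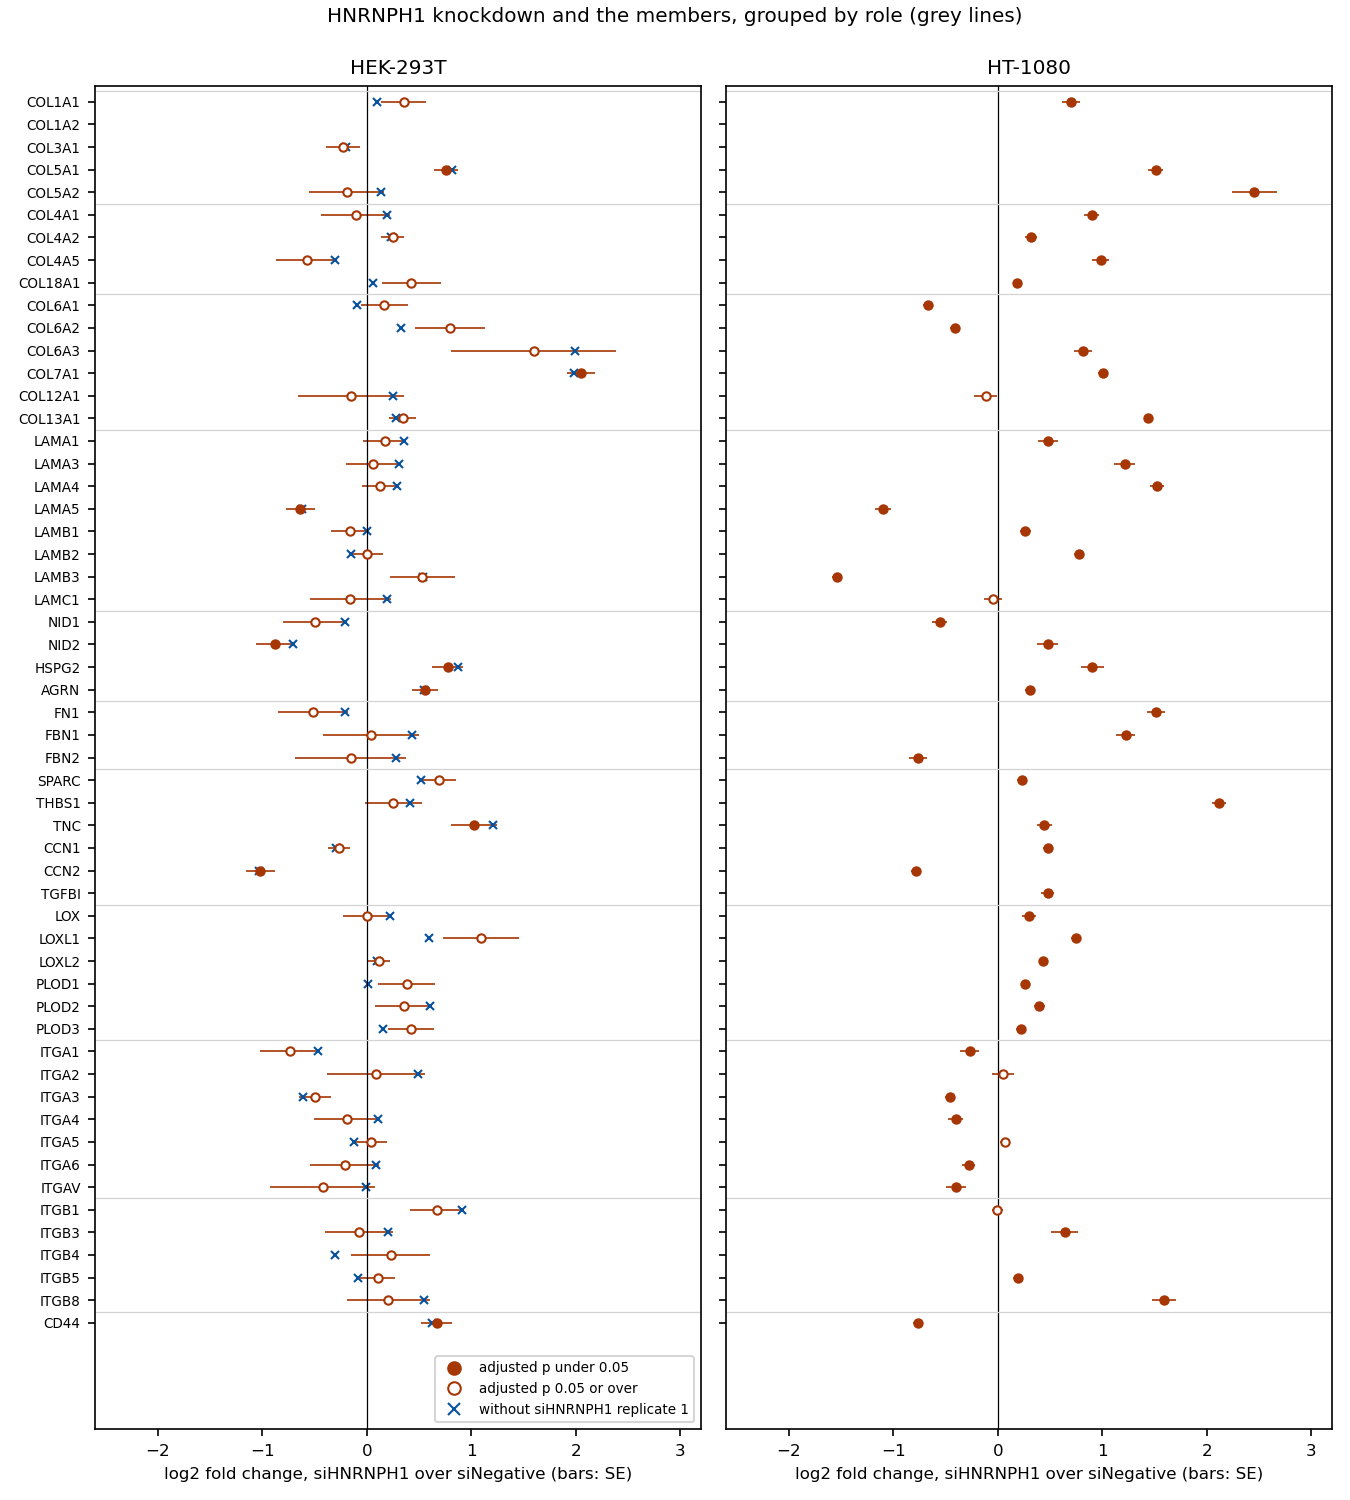
Log2 fold change of each tested member with siHNRNPH1 against siNegative in HEK-293T (left) and HT-1080 (right), ordered by role with grey lines between roles; bars are standard errors, filled points passed the test and crosses are the HEK-293T values without siHNRNPH1 replicate 1. In HT-1080, 34 filled points lie to the right of 0 and 13 to the left, while 9 points are filled in HEK-293T.

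All 3 tested fibrillar collagen chains rose in HT-1080. COL5A1 went from 57.3, 46.5 and 54.1 CPM to 160.7, 155.0 and 155.6 CPM, a log2 fold change of 1.51 (SE 0.07, edgeR BH-adjusted p = 8.18e-08). COL5A2 rose by 2.46 (SE 0.22) from a low level, 9 to 12 counts per control library and 54 to 75 counts with siHNRNPH1. COL1A1 rose by 0.70 (SE 0.09). The siHNRNPH1 libraries of all 3 lay above every control. COL3A1 had 1 to 3 counts per library in this line and was not tested.

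All 4 basement membrane collagens rose as well. COL4A5 rose by 0.99 (SE 0.08), COL4A1 by 0.90 (SE 0.07), COL4A2 by 0.32 (SE 0.06) and COL18A1, the precursor of endostatin, by 0.19 (SE 0.05). COL4A1 and COL4A2 encode the common chains of type IV collagen and lie head to head. COL4A1 stood at 452, 367 and 447 CPM in the controls and at 841, 815 and 821 CPM with siHNRNPH1. COL4A2 stood at 838, 733 and 827 CPM and then at 1073, 1031 and 1033 CPM.

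The stretch between the RefSeq starts of these divergent genes is shown because both rose in HT-1080, though by unlike amounts. In RefSeq (GRCh38.p14) the starts lie 127 bases apart on opposite strands of chromosome 13, and the promoter windows, each from 250 bases before to 50 after a start, share 226 bases. The same 30 bases are printed below on the strand of each gene, with a CCAAT box in capitals (ATTGG on the other strand), read from chr13:110307166-110307195. CCAAT and the GC box GGGCGG were searched on both strands, and each had 1 match between the starts. CCAAT was present in 34.6% and GGGCGG in 45.0% of the 35116 promoter windows of the table. The outermost long-read models began at 110307208 for COL4A1 and at 110306971 for COL4A2, so they span the printed bases in both genes.
COL4A1: cagcgccaacaaATTGGggagctcggcccg
COL4A2: cgggccgagctccCCAATttgttggcgctg

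Of the 6 other collagens, 3 rose, 2 fell and COL12A1 did not pass (-0.11, SE 0.11, edgeR BH-adjusted p = 0.388). COL13A1, a transmembrane collagen of adhesion sites, went from 142.4, 144.9 and 137.8 CPM to 405.8, 396.9 and 406.1 CPM, a rise of 1.44 (SE 0.04, edgeR BH-adjusted p = 8.06e-09). COL7A1, which forms the anchoring fibrils under epithelia, rose by 1.01 (SE 0.05). The chains of collagen VI split: COL6A3 rose by 0.82 (SE 0.09), while COL6A1 fell by 0.67 (SE 0.04) and COL6A2 fell by 0.41 (SE 0.05). COL6A1 had 292.8, 286.0 and 301.6 CPM in the controls and 187.8, 199.4 and 192.4 CPM with siHNRNPH1, with no overlap.

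Of the 8 laminin chains, 5 rose, 2 fell and LAMC1 did not pass (-0.04, edgeR BH-adjusted p = 0.689). LAMA4, the alpha chain of laminins in vessel walls and mesenchyme, went from 65.7, 58.9 and 70.1 CPM to 204.2, 186.7 and 195.5 CPM (1.52, SE 0.06, edgeR BH-adjusted p = 5.43e-08). LAMA3 went from 11.1, 8.17 and 9.71 CPM to 24.4, 22.1 and 23.8 CPM (1.22, SE 0.10). LAMB2, LAMA1 and LAMB1 rose by 0.77, 0.48 and 0.26. The rises thus spanned alpha and beta chains.

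LAMB3 fell most of all members, from 1825, 1820 and 1772 CPM to 653, 650.0 and 645 CPM, a log2 fold change of -1.54 (SE 0.04, edgeR BH-adjusted p = 7.3e-09). LAMA5, the broadly expressed epithelial alpha chain, went from 354, 288 and 353 CPM to 154.5, 162.6 and 168.8 CPM (-1.10, SE 0.08). LAMA3 and LAMB3 are partner chains of laminin-332, and they moved in opposite directions here.

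Among the proteins that link the basement membrane, HSPG2 (perlecan) rose by 0.90 (SE 0.11), NID2 by 0.48 (SE 0.10) and AGRN (agrin) by 0.31 (SE 0.05), and NID1 fell by 0.56 (SE 0.07). FN1, which encodes fibronectin, went from 1078, 845 and 1088 CPM to 3007, 2934 and 3080 CPM, a rise of 1.52 (SE 0.09, edgeR BH-adjusted p = 3.73e-07). The fibrillins moved apart. FBN1 rose by 1.22 (SE 0.09), and FBN2 went from 11.4, 9.56 and 11.1 CPM to 6.54, 6.65 and 6.53 CPM (-0.77, SE 0.09).

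Of the 6 matricellular proteins, 5 rose and CCN2 fell. THBS1 had the largest rise among members averaging 50 or more counts, from 186.5, 157.0 and 185.7 CPM to 826, 791 and 792 CPM, a log2 fold change of 2.12 (SE 0.07, edgeR BH-adjusted p = 1.06e-08). TGFBI and CCN1 each rose by 0.48, TNC (tenascin-C) by 0.45 and SPARC, a collagen-binding glycoprotein, by 0.23. CCN2, a secreted regulator of matrix production, went from 75.1, 77.0 and 81.8 CPM to 47.2, 46.0 and 49.2 CPM (-0.78, SE 0.05, edgeR BH-adjusted p = 7.73e-07). In each of these 6 genes the siHNRNPH1 libraries did not overlap the controls.

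CCN2 is a textbook target of the TEAD factors and their coactivator YAP. The core of the TEAD site, GGAATG, was searched on both strands of the RefSeq promoter windows, which matched 43 of the 55 members. It was present in the windows of 7 of the 43 members (16.3%) and in 14.0% of all windows. The CCN2 window held 3 matches, a number that 0.125% of all windows reached, and the THBS1 window held 1. The 30-base stretches with most matches are printed for CCN2, which fell, and THBS1, which rose, with the core in capitals. Each was cut so that its first match sits near the same place, and the other members with a match are not printed. The stretches lie at chr6:131951453-131951482 on the minus strand for CCN2 and chr15:39581027-39581056 on the plus strand for THBS1 (GRCh38.p14). Whether matches relate to the direction of change was not tested. A match is a description of the letters and not of binding.
CCN2: tggggaGGAATGcgaGGAATGtccctgttt
THBS1: tccccaGGAATGcgagcgcccctttaaaag

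All 6 crosslinking enzymes rose in HT-1080, by small amounts. LOXL1, LOXL2 and LOX, of the lysyl oxidase family, rose by 0.75 (SE 0.05), 0.44 (SE 0.05) and 0.30 (SE 0.07). The lysyl hydroxylases PLOD2, PLOD1 and PLOD3 rose by 0.40, 0.27 and 0.22 (SE 0.04 to 0.05). The rises of PLOD1, PLOD3 and LOX were all under 1.3-fold.

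Of the 7 alpha integrins, 5 fell and none rose: ITGA3 by 0.46, ITGA4 by 0.40, ITGAV by 0.40, ITGA6 by 0.28 and ITGA1 by 0.27. ITGA1, a collagen receptor chain, lost its call in 5 of 6 fits with 1 library removed. ITGA2 and ITGA5, alpha chains of a collagen and a fibronectin receptor, did not pass, at 0.05 (edgeR BH-adjusted p = 0.693) and 0.07 (edgeR BH-adjusted p = 0.235). ITGA6, a laminin receptor chain, stood at 588, 483 and 557 CPM in the controls and at 465.5, 472.4 and 467.9 CPM with siHNRNPH1. Its lowest control lay close above the siHNRNPH1 libraries.

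Of the 4 tested beta integrins, 3 rose. ITGB8, which partners the alpha V chain and activates latent TGF-beta, went from 4.40, 4.15 and 5.39 CPM to 16.0, 14.9 and 13.1 CPM (1.59, SE 0.12, edgeR BH-adjusted p = 1.73e-06). ITGB3 and ITGB5 rose by 0.64 (SE 0.13) and 0.19 (SE 0.04). ITGB1, the common partner of most alpha chains, did not pass (-0.01, edgeR BH-adjusted p = 0.925), with 1712 to 1951 CPM in the controls and 1911 to 1958 CPM with siHNRNPH1. CD44 went from 3129, 2876 and 3106 CPM to 1920, 1836 and 1865 CPM (-0.77, SE 0.05, edgeR BH-adjusted p = 8.35e-07).

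**Figure D3:**
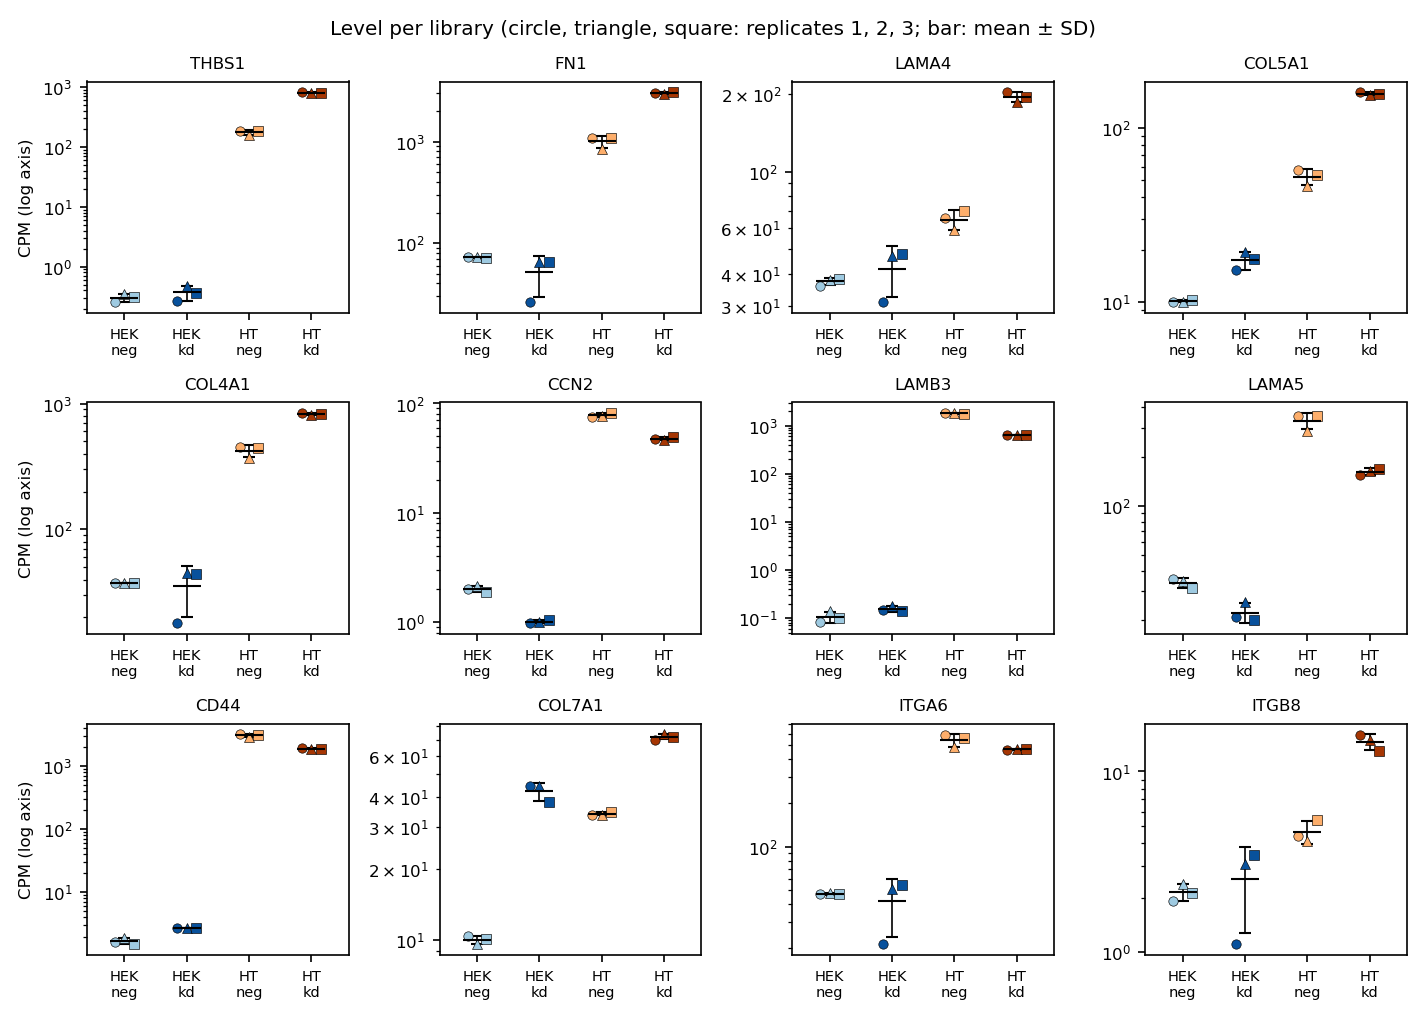
CPM of 12 members in each library on log axes, with siNegative (neg) and siHNRNPH1 (kd) libraries of HEK-293T and HT-1080 (HT); circles, triangles and squares are replicates 1, 2 and 3, and bars show mean ± SD (n = 3). FN1 and THBS1 rise in HT-1080 with no overlap, and the circle of HEK-293T siHNRNPH1 (replicate 1) lies below the other replicates for FN1, COL4A1, ITGA6 and ITGB8.

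In HEK-293T, 9 of 53 tested members changed with siHNRNPH1, 6 up and 3 down (edgeR BH-adjusted p under 0.05), where 10.0% of 19966 genes changed, 5.12% up and 4.88% down. At least a doubling or halving was reached by 3 members, against 5.87% of all genes, and the median log2 fold change was 0.10 over the members and 0.02 over all genes. Without siHNRNPH1 replicate 1, 38 members changed, 27 up and 11 down, against 61.8% of all genes, 30.5% up and 31.3% down, and the median was 0.20 against -0.01 (-0.005 unrounded). The fits without siNegative replicates 1, 2 and 3 called 0 members each, with 10, 11 and 11 members at an unadjusted p under 0.05. Those without siHNRNPH1 replicates 2 and 3 called 1 and 2, and DESeq2 on all libraries called 12. The shares of all genes in these fits are not given here. All 9 genes below were also called without siHNRNPH1 replicate 1.

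COL7A1 changed most in HEK-293T, from 10.4, 9.62 and 10.2 CPM to 44.45, 44.5 and 38.15 CPM, a log2 fold change of 2.05 (SE 0.13, edgeR BH-adjusted p = 0.00424). TNC went from 4.70, 3.96 and 5.12 CPM to 6.62, 11.6 and 10.6 CPM (1.03, SE 0.22). HSPG2 went from 18.4, 18.5 and 16.1 CPM to 25.4, 36.5 and 30.6 CPM (0.78, SE 0.15). In these 3 genes the groups did not overlap, and replicate 1 was the lowest siHNRNPH1 library of TNC and HSPG2.

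COL5A1 rose from 10.0, 10.1 and 10.3 CPM to 15.3, 19.4 and 17.7 CPM (0.76, SE 0.12), and its chain partner COL5A2 did not pass (-0.19, SE 0.36). CD44 rose from 1.66, 1.89 and 1.51 CPM to 2.76, 2.72 and 2.70 CPM (0.67, SE 0.15, edgeR BH-adjusted p = 0.0403). AGRN, which also organises synapses, rose from 31.2, 32.9 and 29.5 CPM to 45.4, 51.7 and 43.2 CPM (0.56, SE 0.12). For all 3 the siHNRNPH1 libraries lay above the controls.

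The members that fell were CCN2, NID2 and LAMA5. CCN2 went from 1.99, 2.13 and 1.87 CPM to 0.974, 0.994 and 1.04 CPM (-1.02, SE 0.14, edgeR BH-adjusted p = 0.0128). NID2 went from 33.3, 31.5 and 34.2 CPM to 13.2, 21.7 and 20.3 CPM (-0.88, SE 0.19), and LAMA5 from 35.45, 34.4 and 31.3 CPM to 20.9, 25.7 and 19.9 CPM (-0.64, SE 0.14). None of the 3 genes had overlapping groups. Removing each of the 6 libraries in turn ended the call on COL7A1 in 3 fits, on CCN2 in 4 and on each of the other 7 genes in 5.

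Many members of other roles missed the threshold in HEK-293T with all libraries. None of the basement membrane collagens, fibronectin and fibrillins, crosslinking enzymes, alpha integrins or beta integrins passed. The largest changes that missed it were those of COL6A3 (1.60, SE 0.79), from 3 to 35 counts per library, and LOXL1 (1.09, SE 0.37). LOXL1 stood at 1.13, 1.40 and 1.37 CPM and then at 4.32, 2.15 and 1.95 CPM, with replicate 1 the highest. FN1 had 72.8, 73.1 and 71.0 CPM in the controls and 25.95, 65.7 and 64.5 CPM with siHNRNPH1. Its log2 fold change was -0.52 (SE 0.33, edgeR BH-adjusted p = 0.385) with replicate 1 and -0.21 (edgeR BH-adjusted p = 1.29e-05) without it. FBN2 gave -0.16 with that library and 0.28 without it, so its direction turned. Among the members called without it, that library also turned the direction of COL4A1, COL5A2, LAMC1, LAMB2, ITGA5 and ITGA6. ITGB1 had 155.6, 158.3 and 153.7 CPM in the controls and 153.1, 298.3 and 311.5 CPM with siHNRNPH1.

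Without that library, ITGB1 rose by 0.91 (edgeR BH-adjusted p = 4.42e-17). PLOD2 then rose by 0.61 and SPARC by 0.52. Of the laminins, LAMA1, LAMA3, LAMA4 and LAMC1 then rose by 0.19 to 0.36, and LAMB2 and LAMA5 fell. Of the alpha integrins, ITGA2 and ITGA6 then rose, by 0.49 and 0.09, and ITGA1, ITGA3 and ITGA5 fell, by 0.46, 0.61 and 0.13.

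Both lines called 9 members, and 7 of them moved the same way: COL5A1, COL7A1, HSPG2, AGRN and TNC rose in both, and CCN2 and LAMA5 fell in both. CD44 and NID2 moved in opposite directions. Of all genes tested in both lines, 6.89% were called in both, and 78.7% of those moved the same way. Without HEK-293T siHNRNPH1 replicate 1, both lines called 34 members, 25 in the same and 9 in opposite directions. In that fit the call in both lines covered 46.9% of the genes with a test in each, and 67.6% of these had the same direction. The lines share no libraries.

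The difference between the lines was tested as an interaction of cell line and siRNA over all 12 libraries, with a positive sign where the response was more positive in HT-1080. It called 17 of 54 members, 11 more positive and 6 more negative, where 19.0% of 21276 genes were called, 8.13% and 10.8% in the 2 directions. Without HEK-293T siHNRNPH1 replicate 1 it called 37 members, 19 and 18, against 49.0% of all genes, 22.7% and 26.4%. The smallest p belonged to CD44, which rose in HEK-293T and fell in HT-1080, a difference of -1.51 (SE 0.15, edgeR BH-adjusted p = 6.68e-05). LAMB3 (-2.15, SE 0.23) and COL7A1 (-1.12, SE 0.14) were more negative in HT-1080. LAMB3 had 9 to 16 counts per HEK-293T control and 15 to 22 with siHNRNPH1, near the lower end of detection. Its change in HEK-293T did not pass (0.53, SE 0.31, edgeR BH-adjusted p = 0.334). COL7A1 rose in both lines, by more in HEK-293T.

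THBS1 (1.79, SE 0.24), COL13A1 (1.02, SE 0.14) and LAMA4 (1.33, SE 0.18) were more positive in HT-1080. THBS1 in HEK-293T had 0.252, 0.353 and 0.306 CPM in the controls and 0.269, 0.480 and 0.362 CPM with siHNRNPH1, which overlap. COL13A1 had 4.33, 3.89 and 4.55 CPM and then 5.74, 5.42 and 5.35 CPM, and did not pass in HEK-293T with all libraries. LAMA4 had 35.9, 37.9 and 38.1 CPM and then 30.8, 47.0 and 47.6 CPM, with replicate 1 below the controls. FN1 differed by 1.97 (SE 0.35, edgeR BH-adjusted p = 0.00306), and by 1.67 without that replicate. No crosslinking enzyme and no integrin was called with all libraries. Without HEK-293T siHNRNPH1 replicate 1, 3 of 6 crosslinking enzymes, 4 of 7 alpha integrins and 3 of 5 beta integrins were called. In that fit 49.0% of all genes were called. The 4 alpha integrins were more negative in HT-1080, and the enzymes and beta integrins each had 2 more positive and 1 more negative.

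Fibronectin, CD44 and integrin alpha 6 are known for alternative exons, so the percent of each gene's expected count held by each transcript was compared. RSEM divides reads among transcripts that share most of their sequence, and the exons of each Ensembl transcript are not used here. Usage of transcripts (limma diffSplice on voom weights, BH-adjusted p under 0.05) changed for 3 of 44 tested members in HEK-293T, where 8.59% of 13014 genes changed: SPARC, ITGB5 and LAMA5. Without siHNRNPH1 replicate 1 it changed for 20 of 44 members, against 39.5% of all genes. The calls on SPARC and LAMA5 were kept in that fit, and that on ITGB5 was lost (limma diffSplice BH-adjusted p = 0.479). In HT-1080, transcript usage changed for 15 of 47 members, against 19.5% of 10780 genes. These were COL5A1, COL6A1, COL6A2, COL6A3, COL7A1, COL13A1, LAMB1, LAMB2, FN1, SPARC, CCN1, LOXL1, PLOD2, ITGA3 and CD44.

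**Figure D4:**
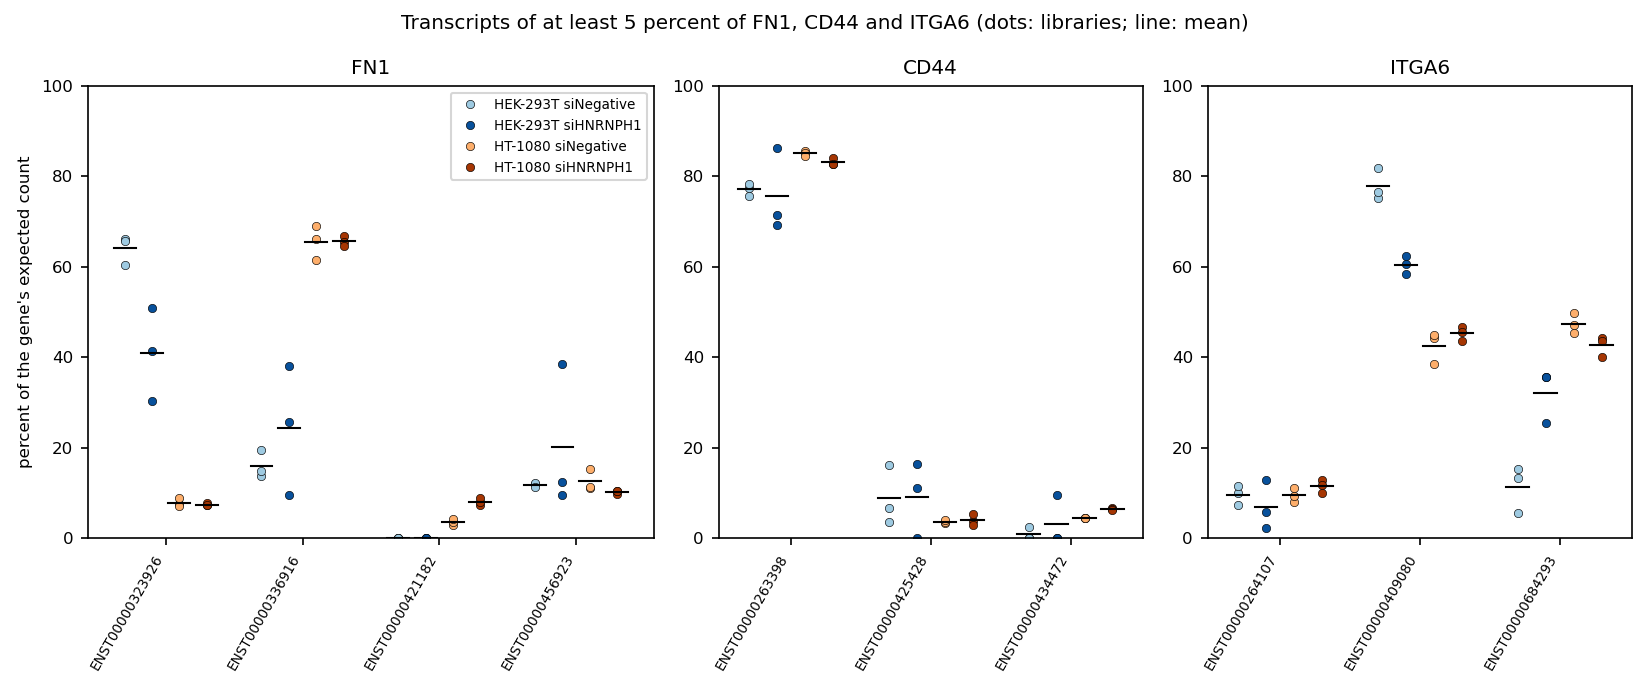
Percent of the expected count of FN1, CD44 and ITGA6 held by each transcript of at least 5% in the mean of any group; dots are libraries and lines group means. In FN1, ENST00000323926 leads in HEK-293T and ENST00000336916 in HT-1080, and ENST00000409080 of ITGA6 is lower in all 3 HEK-293T siHNRNPH1 libraries than in the controls.

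The leading FN1 transcript differed between the lines. ENST00000323926.10 held 66.1%, 60.4% and 65.7% in the HEK-293T controls and 7.49%, 7.11% and 8.89% in the HT-1080 controls. ENST00000336916.8 held 13.6%, 19.4% and 14.9% in HEK-293T and 69.1%, 61.6% and 66.1% in HT-1080. With siHNRNPH1 in HEK-293T, ENST00000323926.10 held 30.4%, 50.9% and 41.4%, all below the controls (exact permutation p = 0.1, the smallest that 3 against 3 libraries allow). The FN1 usage call in HEK-293T was not made with all libraries (limma diffSplice BH-adjusted p = 0.881) and was made without replicate 1 (limma diffSplice BH-adjusted p = 2.94e-05).

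In HT-1080 the main FN1 transcripts held their places, and ENST00000421182.5 went from 2.98%, 3.53% and 4.26% to 7.38%, 8.03% and 8.79%. This was the transcript with the smallest p, and the gene was called (limma diffSplice BH-adjusted p = 2.25e-06). The call was lost without siNegative replicate 2 (limma diffSplice BH-adjusted p = 1.0), where the fitted residual SD of FN1 was 393 against 2.02 with all libraries. It was also lost with log2 CPM in place of voom weights (limma BH-adjusted p = 0.305). The percents themselves did not overlap, also without replicate 2.

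CD44 was mostly 1 transcript, ENST00000263398.11, with a mean of 77.2% ± 1.34 (SD, n = 3) in the HEK-293T controls and 85.1% ± 0.57 in the HT-1080 controls. In HT-1080, ENST00000434472.6 went from 4.35%, 4.43% and 4.41% to 6.58%, 6.35% and 6.14%, without overlap. The gene was called there (limma diffSplice BH-adjusted p = 3.72e-04). That call was lost without siNegative replicate 2 (limma diffSplice BH-adjusted p = 0.989), with edgeR's diffSpliceDGE (BH-adjusted p = 0.364) and with log2 CPM in place of voom weights (limma BH-adjusted p = 0.361). In HEK-293T, at under 3 CPM, CD44 usage missed the threshold (limma diffSplice BH-adjusted p = 0.652).

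In ITGA6, 2 transcripts differed in their percents in HEK-293T, although the gene did not pass the usage test with all libraries. ENST00000409080.6 held 75.2%, 81.8% and 76.5% in the controls and 62.3%, 60.6% and 58.35% with siHNRNPH1. ENST00000684293.1 held 13.3%, 5.48% and 15.3% and then 35.5%, 25.4% and 35.5%. Neither transcript overlapped between the groups (exact permutation p = 0.1 for each). With all libraries the gene missed the threshold by both tests (limma diffSplice BH-adjusted p = 0.0903, edgeR diffSpliceDGE BH-adjusted p = 0.858), and it passed without siHNRNPH1 replicate 1 (limma diffSplice BH-adjusted p = 3.74e-05). In HT-1080, where these transcripts held means of 42.6% and 47.4% in the 3 controls, ITGA6 was not called (limma diffSplice BH-adjusted p = 0.220).

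The long-read models show the alternative exons themselves, in the coordinates of the files (GRCh38.p13, per the submitters' processing notes). Models carry no read counts, so each counted once. With 1 pool per group no test was made, and the exact Clopper-Pearson 95% intervals cover counting error only. FN1 models lay on the minus strand of chromosome 2. The 270-base exon at chr2:215380811-215381080, by its length the exon of extra domain A, was in 24 of 30 HT-1080 siNegative models (80.0%, interval 61.4% to 92.3%). With siHNRNPH1 it was in 55 of 87 models (63.2%, interval 52.2% to 73.3%), and these intervals overlap. In HEK-293T it was in 5 of 5 and 4 of 5 models.

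The 273-base exon at chr2:215392931-215393203, by its length that of extra domain B, was in 3 of 18 and 7 of 58 HT-1080 models (16.7% and 12.1%). Of the HEK-293T models, 2 of 4 held it with siNegative and 3 of 5 with siHNRNPH1. The extra domains are included in fibronectin made by many cells and left out of the form made by liver.

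**Figure D5:**
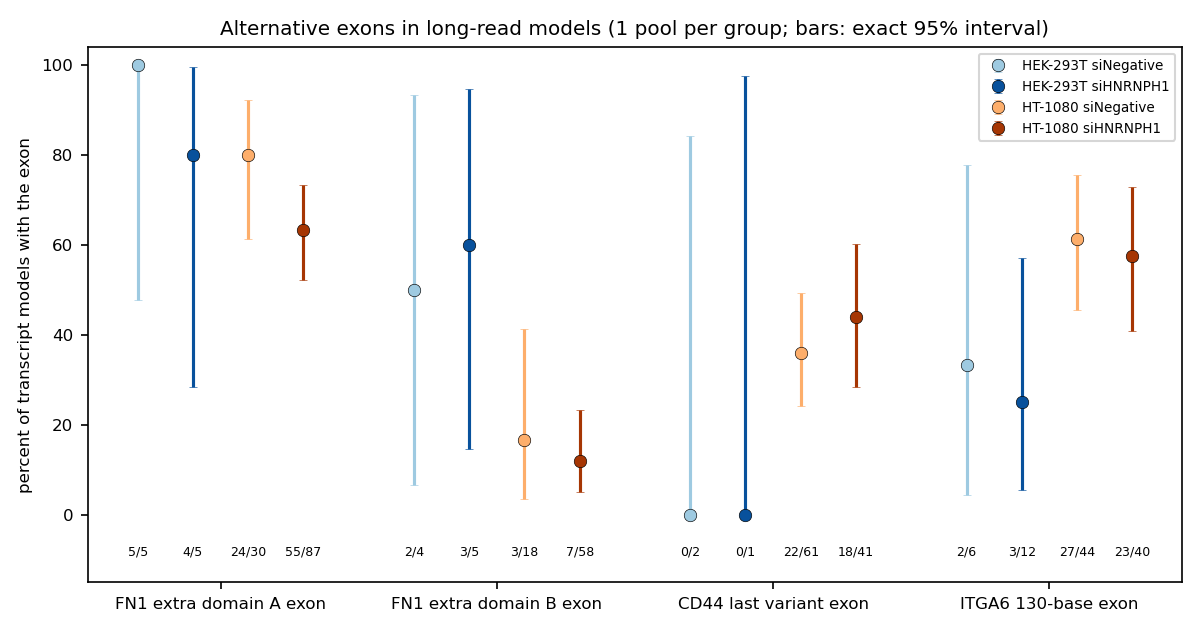
Percent of long-read transcript models that carry an alternative exon, among the models that span it, in 1 pool per group; bars are exact 95% intervals and the numbers below give models with the exon over all models. The HT-1080 pools with siNegative and siHNRNPH1 have overlapping intervals at each exon.

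CD44 variant exons lie on the plus strand of chromosome 11. The 204-base exon at chr11:35211246-35211449, the last of them, was in 22 of 61 HT-1080 siNegative models (36.1%, interval 24.2% to 49.4%) and in 18 of 41 siHNRNPH1 models (43.9%, interval 28.5% to 60.3%). The 5 shorter variant exons, of 90 to 132 bases, were in 6.45% to 14.3% of the siNegative models and in 4.76% to 12.5% of the siHNRNPH1 models. Counting only models that match both flanking splice sites of the commonest skipping junction, the shares were 12.5% to 22.2% and 9.52% to 20.8%, and those of the last exon 44.0% and 47.2%. HEK-293T had 2 and 1 CD44 models, none with a variant exon. Most HT-1080 models thus lacked these exons with either siRNA.

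In ITGA6, inclusion of the 130-base exon at chr2:172501772-172501901 gives the cytoplasmic tail of alpha 6A, and skipping gives alpha 6B. It was in 27 of 44 HT-1080 siNegative models (61.4%, interval 45.5% to 75.6%) and in 23 of 40 siHNRNPH1 models (57.5%, interval 40.9% to 73.0%). In HEK-293T it was in 2 of 6 and 3 of 12 models (33.3% and 25.0%). The intervals of the siRNAs overlap in both lines.

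Other genes of the same processes were counted from 4 lists. In HT-1080, 14 of 21 tested genes of collagen maturation changed, 12 up and 2 down, and 11 of 12 proteoglycan and hyaluronan genes changed, 8 up and 3 down. The collagen chaperone SERPINH1 rose by 0.66, the prolyl hydroxylase subunit P4HA1 by 0.95 and the procollagen protease ADAMTS14 by 2.06. VCAN (versican), the glypican GPC6 and the syndecan SDC4 rose by 1.74, 1.29 and 1.03, and the hyaluronan receptor HMMR fell by 1.40 (edgeR BH-adjusted p = 1.2e-08). These shares stand beside the 65.3% of all genes.

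Of the adhesion proteins at integrin tails, 21 of 27 were called in HT-1080, 7 up and 14 down, where 65.3% of all genes were called, 32.7% up and 32.6% down, with a median log2 fold change of -0.23. PXN (paxillin) fell by 0.72, FLNA (filamin A) by 0.63 and VCL (vinculin) by 0.50. Of the other collagens, laminins and integrins, 13 of 17 changed, 8 up and 5 down, against the same shares of all genes. COL4A6, the partner of COL4A5 in its trimer, rose by 2.96 (edgeR BH-adjusted p = 3.5e-08) and ITGA11, a fibroblast collagen receptor chain, by 1.51.

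In HEK-293T the same lists had 4 of 24, 2 of 15, 2 of 28 and 2 of 24 genes called, in the order collagen maturation, proteoglycans, adhesion proteins, and other collagens, laminins and integrins, where 10.0% of all genes were called. Without siHNRNPH1 replicate 1 these were 21 of 24, 13 of 15, 24 of 28 and 16 of 26, where 61.8% of all genes were called. With all libraries, the collagen galactosyltransferase COLGALT1 rose by 0.83, and the prolyl hydroxylase subunit P4HA2 fell by 0.74 there and by 0.21 in HT-1080.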

How the data were processed

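For the short reads, the authors deposited RSEM expected counts of transcripts on build GRCh38.p13, per the submitters' processing notes. The authors gave 1 table per line, with 251295 transcripts. RSEM's version, the annotation release and strandedness are not given in the sources used here, so overlapping genes are uncertain. The deposited long-read files hold exon positions of transcript models of pooled replicates. Transcript values were added up by gene ID and rounded, and 0 value columns lacked a sample. After filterByExpr and TMM scaling, genes were tested two-sided with edgeR 4.0.16 (robust quasi-likelihood, BH over all genes), within a line for the siRNAs. SEs came from the F statistic. Transcript usage was tested with limma 3.58.1 on unrounded counts. Steps were tested on simulated data. Members and lists were chosen with earlier results of these data known. Values per library follow a rule: per comparison and direction, the 6 called members with the largest change and a mean count of at least 50; the 6 with the smallest interaction p; and FN1, CD44 and ITGA6. The main fits did not pair libraries by replicate number.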

Additional observations from a re-analysis of the deposited data

Results flagged for a closer look

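These 17 members are listed because the interaction of cell line and siRNA (edgeR, BH-adjusted p under 0.05) called their response different between HEK-293T and HT-1080; values are the HT-1080 minus the HEK-293T log2 fold change. More positive in HT-1080 were COL5A2 (2.59), FN1 (1.97), THBS1 (1.79), COL4A5 (1.496), LAMA4 (1.33), NID2 (1.29), LAMA3 (1.09), COL13A1 (1.02), LAMB2 (0.70), COL5A1 (0.68) and CCN1 (0.67). More negative were LAMB3 (-2.15), CD44 (-1.51), COL6A2 (-1.29), COL7A1 (-1.12), COL6A1 (-0.92) and LAMA5 (-0.54). The values of LAMB3 and COL5A2 rest on low counts, 9 to 22 per HEK-293T library for LAMB3 and 9 to 12 per HT-1080 control for COL5A2. The calls on LAMA3, LAMB2, COL6A1, COL6A2 and LAMA5 were lost in 3 to 9 of the fits that left out 1 of the 12 libraries, and all 17 were called without HEK-293T siHNRNPH1 replicate 1.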

How the results depend on the processing

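The count of members changed in HEK-293T was 9. It was 3 without a filter on low counts, 17 with all 12 libraries in 1 fit and 0 with the replicate number as a block (12 at an unadjusted p under 0.05; edgeR), and the fits that left out 1 library gave 0 to 38. For HT-1080 the count of 47 became 27 with all 12 libraries in 1 fit. The interaction count of 17 was 12 to 37 with 1 library left out, 37 being without HEK-293T siHNRNPH1 replicate 1. Under the block the HT-1080, interaction and baseline counts were 47, 15 and 52. Where no share of all genes is given above for a setting, whether its count moved with that of all genes cannot be told. Same-numbered libraries correlated by -0.057 to 0.078 in their deviations. In HEK-293T each library correlated best with its own number, in HT-1080 only replicate 3 did. Whether same-numbered libraries shared a batch was not tested. HNRNPH1 in HEK-293T lost its call under the replicate block (-1.79, edgeR BH-adjusted p = 0.0665) and in 4 fits with 1 library left out, whose log2 fold changes in all ran from -1.89 to -1.59.

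Limma BH-adjusted p-values of transcript usage with 1 library left out ranged from 2.94e-05 to 0.989 for FN1 and from 3.74e-05 to 0.644 for ITGA6 in HEK-293T, and from 2.09e-05 to 1.0 for FN1 and 1.30e-04 to 0.989 for CD44 in HT-1080. The highest HT-1080 values came without siNegative replicate 2, with residual SDs of 393 for FN1 and 10.6 for CD44 against 2.02 and 1.58. With log2 CPM in place of voom weights, an alternative chosen after seeing the data, FN1 gave 0.305 and CD44 0.361 in HT-1080, and without that library 0.00273 and 0.936. EdgeR's diffSpliceDGE gave 0.364 for CD44.

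Among members called in HEK-293T with or without siHNRNPH1 replicate 1, 12 changed sign under some setting, none of them called with all libraries. Without a filter, LAMB2 gave -0.026 and LOX -0.016. Under the replicate block, LAMB2 gave -0.013, FBN1 -0.15, LOX -0.039 and ITGA2 -0.11. With 1 library left out, log2 fold changes ran from -0.39 to 0.14 for COL5A2, -0.29 to 0.20 for COL4A1, -0.10 to 0.31 for LAMA3, -0.15 to 0.090 for LAMB2, -0.395 to 0.19 for LAMC1, -0.255 to 0.43 for FBN1, -0.44 to 0.28 for FBN2, -0.13 to 0.23 for LOX, -0.21 to 0.49 for ITGA2, -0.125 to 0.12 for ITGA5, -0.43 to 0.092 for ITGA6 and -0.073 to 0.55 for ITGB8. The interaction of ITGA6 ran from -0.42 to 0.070. No called member changed sign in HT-1080 or the baseline under any setting run, and none of the named HEK-293T members did under RLE or library-size scaling. The causes were not tested.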

Other observations

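The number of long-read models per member differed between the pools, with no measure of abundance behind it; the members named were chosen after their values were seen. FN1 had 47 models in HT-1080 with siNegative and 113 with siHNRNPH1, COL13A1 had 38 and 86, and THBS1 had 19 and 47. LAMB3 and CD44, whose RNA fell, had 77 and 50, and 82 and 57. COL4A2 and ITGB5, whose RNA rose in HT-1080, had nearly equal numbers, 46 and 49, and 40 and 41. In HEK-293T, NID1 had 38 and 33 models, FBN2 13 and 24, and ITGB1 19 and 39. These numbers were not scaled to the number of all models in each pool.

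Several markers of HT-1080 that are not matrix genes were lower with siHNRNPH1 in that line. The mean of FOSL1, a subunit of AP-1, was 520 CPM in the controls and 178 CPM with siHNRNPH1, and that of the protease PLAU was 2843 and 1741 CPM. S100A6 had 406 and 388 CPM. These values come without a test here.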
